A study of Mus musculus with 10 samples.

Results

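CXC chemokines are small secreted proteins that direct the movement of leukocytes, and they take their name from a pair of cysteines held apart by 1 other residue near the start of the mature protein. The genes described here are the 10 members Cxcl1, Cxcl2, Cxcl5, Cxcl9, Cxcl10, Cxcl11, Cxcl12, Cxcl13, Cxcl14 and Cxcl16, taken by symbol from the 51789 genes of the count table. They were measured in cardiomyocytes isolated 4 days after myocardial infarction (MI) from 5 mice that overexpress G protein-coupled receptor kinase 5 (GRK5) in cardiomyocytes (TgGRK5-MI) and from 5 non-transgenic littermate control mice (NLC-MI), with 1 RNA-seq library per mouse. Both groups were infarcted by permanent ligation of the coronary artery, and both carry their own Grk5 gene. Mice of the study were between 8 and 12 weeks old at surgery and of both sexes. The promoter of the transgene and the sex of each mouse sequenced were not given in the sources used here, and no library from a sham-operated heart was analysed here. The question was whether more GRK5 in cardiomyocytes goes with another output of these ligands after ischemic injury.

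The ligands fall into groups by the receptor they engage. Those with the residues Glu-Leu-Arg (ELR) just before the first cysteine, Cxcl1, Cxcl2 and Cxcl5 here, act on Cxcr2 and draw neutrophils, which enter the infarcted heart early. Cxcl9, Cxcl10 and Cxcl11 are induced by interferons and act on Cxcr3 of activated T cells and NK cells. Cxcl12 holds and guides progenitors and other leukocytes through Cxcr4 and is also bound by the scavenging receptor Ackr3. Cxcl13 guides B cells through Cxcr5, Cxcl16 is made as a membrane protein with a chemokine domain that binds Cxcr6, and Cxcl14 is a constitutively made ligand whose receptor is less settled.

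The stretch of coding sequence around the CXC codons is shown for each gene, because it is what makes these genes a family and what divides them. It was read from the coding transcript of the GENCODE M21 annotation of GRCm38 and runs 5′ to 3′ over 19 codons, with the 3 CXC codons in capitals and, where present, the ELR codons in capitals before them.
Cxcl1, chr5:90891472-90891528, plus strand: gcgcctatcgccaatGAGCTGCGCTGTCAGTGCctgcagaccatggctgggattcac
Cxcl2, chr5:90904118-90904174, plus strand: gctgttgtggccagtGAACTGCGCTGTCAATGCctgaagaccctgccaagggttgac
Cxcl5, chr5:90759703-90759759, plus strand: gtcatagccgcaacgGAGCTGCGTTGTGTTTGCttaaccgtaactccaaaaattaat
Cxcl9, chr5:92326818-92326874, minus strand: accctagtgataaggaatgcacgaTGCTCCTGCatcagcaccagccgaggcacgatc
Cxcl10, chr5:92348157-92348213, minus strand: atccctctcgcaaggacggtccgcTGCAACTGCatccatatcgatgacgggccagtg
Cxcl11, chr5:92361276-92361332, minus strand: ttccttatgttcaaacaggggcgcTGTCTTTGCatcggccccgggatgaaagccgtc
Cxcl12, chr6:117171484-117171540, plus strand: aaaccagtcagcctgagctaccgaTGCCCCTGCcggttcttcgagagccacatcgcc
Cxcl13, chr5:95958640-95958696, plus strand: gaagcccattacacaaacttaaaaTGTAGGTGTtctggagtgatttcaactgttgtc
Cxcl14, chr13:56295891-56296125, minus strand: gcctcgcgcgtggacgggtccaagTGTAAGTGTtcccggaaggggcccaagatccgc
Cxcl16, chr11:70459103-70459159, minus strand: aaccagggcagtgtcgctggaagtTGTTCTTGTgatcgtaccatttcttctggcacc
The ELR codons stood before the CXC codons in 3 of the 10 genes, Cxcl1, Cxcl2 and Cxcl5. The interval of Cxcl14 spans an intron, so its printed bases are joined from neighbouring exons. Of the 10 genes, 7 lie on chromosome 5, with Cxcl5, Cxcl1 and Cxcl2 between positions 90759360 and 90905938, Cxcl9, Cxcl10 and Cxcl11 between 92321347 and 92365485, and Cxcl13 apart at 95956951 to 95961068. Cxcl12 lies on chromosome 6 (117168535 to 117181367), Cxcl14 on chromosome 13 (56288643 to 56296551) and Cxcl16 on chromosome 11 (70453983 to 70459984).

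The libraries held from 7968779 to 23381527 counts, with NLC-MI replicate 3, TgGRK5-MI replicate 4 (9114469 counts) and TgGRK5-MI replicate 3 (12833652 counts) the shallowest. Levels below are CPM, counts scaled to the size of each library with edgeR's TMM factors, and 3 counts, taken as the floor of the depth, were worth 0.121 to 0.392 CPM. Grk5, the gene of the transgene, lay between 46.5 and 73.0 CPM in NLC-MI and between 552 and 1698 CPM in TgGRK5-MI (log2 fold change 4.34, SE 0.32, edgeR adjusted p = 0.000245). The summed level of 6 cardiomyocyte markers was 38977 to 100970 CPM in NLC-MI and 40186 to 77595 CPM in TgGRK5-MI. RNA of other cells was also present, with 6 macrophage markers at 514 to 1724 CPM in NLC-MI and 918 to 1916 CPM in TgGRK5-MI, and 5 fibroblast markers at 2389 to 13281 CPM and 2527 to 13132 CPM. Of all the markers counted, the cardiomyocyte calcium channel gene Ryr2 alone passed an unadjusted p under 0.05 (lower in TgGRK5-MI, log2 fold change −0.93, SE 0.30, edgeR adjusted p = 0.967, exact permutation p = 0.0476). Over all genes tested, 2.08% were lower at that threshold. The part of these other cells in the results below was not tested. In RNA from a pool of cells, fewer cells of a type and less RNA per cell cannot be told apart.

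Cxcl13 was higher in TgGRK5-MI at an unadjusted p under 0.05, and no other tested member passed that threshold in either direction. Of the 10 members, 9 passed the filter on low counts and Cxcl11 did not. With edgeR's quasi-likelihood test, 1 of the 9 was higher and 0 were lower at an unadjusted p under 0.05, where 1.77% of the 15232 genes tested were higher and 2.08% were lower. None of the 9 had an adjusted p under 0.10 with edgeR, DESeq2 or limma-voom, and 0.0788% of all genes tested (12 genes) did with edgeR. The groups overlapped for all 10 members, while 153 of the genes tested (1.00%) had groups that did not overlap. The log2 fold changes of the 9 ran from −0.50 to 1.56, 3 positive and 6 negative, with a median of −0.28 against 0.0013 over all genes tested.

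**Figure D1:**
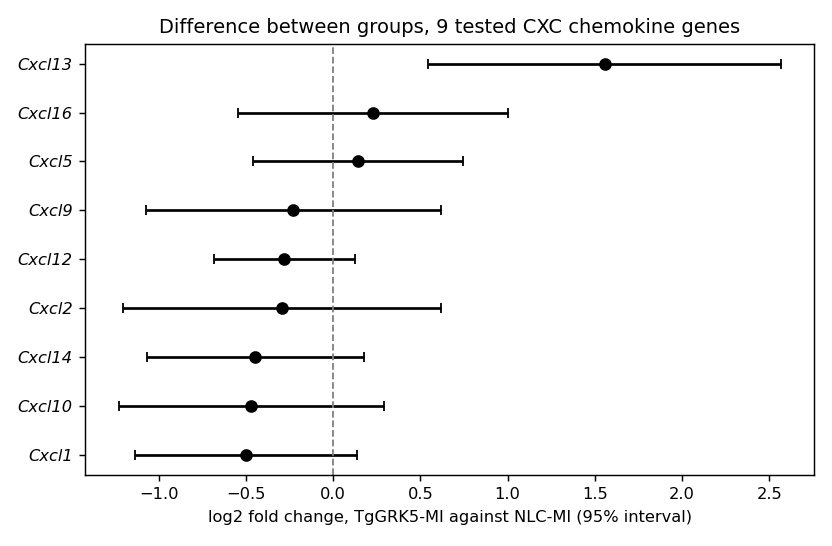
Log2 fold change of the 9 tested CXC chemokine genes, TgGRK5-MI against NLC-MI (points), with the 95% interval of edgeR's fit (bars) and a dashed line at no difference. The interval of Cxcl13 (0.55 to 2.57) lies above 0, and those of the other 8 genes include 0.

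The members spanned a wide range of levels. Compared per kilobase of merged exons, Cxcl12 had the highest mean level over the 10 libraries (22.4 CPM per kb, SD 4.58) and Cxcl16 the second (13.2 CPM per kb, SD 5.71). The next 7 lay close together, in the order Cxcl14 (4.68 CPM per kb), Cxcl1 (3.81), Cxcl5 (3.48), Cxcl2 (3.16), Cxcl10 (2.74), Cxcl13 (2.59) and Cxcl9 (2.26). Each of these neighbours in the order overlapped in the range of its libraries with the next, so these ranges do not resolve the order of neighbours. Read within each library, Cxcl14 and Cxcl1 lay above Cxcl9 in all 10. Cxcl11 was last at 0.0780 CPM per kb (SD 0.0678), below all values of Cxcl9. Counted without regard to length, Cxcl12 alone made up 60.3% to 78.1% of the counts on the 10 genes in a library, and with Cxcl16 the share was 76.3% to 88.2%. The summed level of the 10 genes ran from 222 to 326 CPM in NLC-MI and from 187 to 319 CPM in TgGRK5-MI.

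**Figure D2:**
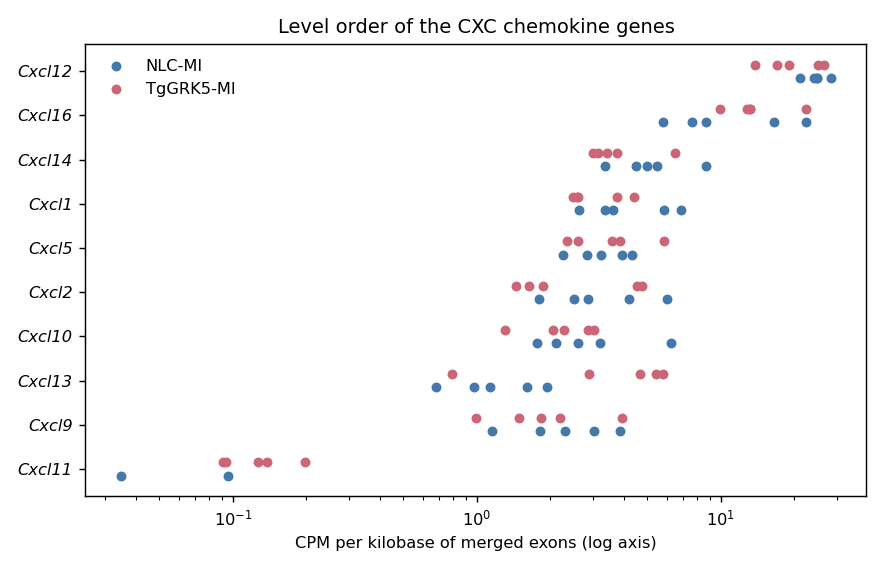
Level of each CXC chemokine gene in each library, in CPM per kilobase of merged exons on a log axis, with 1 point per library, NLC-MI in blue and TgGRK5-MI in red, ordered by the mean over the 10 libraries. Cxcl12 and Cxcl16 lie to the right and Cxcl11 far to the left, and the 3 NLC-MI libraries with 0 counts of Cxcl11 cannot be drawn on this axis.

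Cxcl13, the B cell attractant, was at 1.85, 2.22, 0.784, 1.12 and 1.31 CPM in NLC-MI replicates 1 to 5 and at 5.36, 3.31, 6.25, 6.67 and 0.911 CPM in TgGRK5-MI replicates 1 to 5. In 4 of the 5 TgGRK5-MI libraries it lay above the highest NLC-MI library, and TgGRK5-MI replicate 5 lay inside the NLC-MI range, so the groups overlapped. These levels stand for 6 to 55 counts per library in NLC-MI and 17 to 120 counts in TgGRK5-MI. The means were 1.46 ± 0.576 CPM and 4.50 ± 2.39 CPM (SD, n = 5 each), the log2 fold change was 1.56 (SE 0.46, 95% interval 0.55 to 2.57), and edgeR's p was 0.00581 (adjusted p = 0.858). The two-sided exact permutation test of mean log2 CPM gave p = 0.0476, where 5 against 5 libraries allow no p under 0.00794. Cxcl13 was among the genes that the study named from these samples, so its direction here is not independent evidence. The study also reported altered Cxcl13 by RT-PCR in cardiomyocytes after MI, and those RT-PCR values were not analysed here. Its mean level over the libraries was the third lowest of the members per kilobase, and within TgGRK5-MI it was 3.91 CPM per kb.

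The call of Cxcl13 depended on the fit. With limma-voom and sample quality weights the log2 fold change was 0.75 (SE 0.52, limma adjusted p = 0.580) and the unadjusted p was above 0.05, and in a fit that kept only genes with at least 10 counts in every library it was not tested. When single libraries were dropped, the log2 fold change ran from 1.37 to 1.83 and edgeR's p between 0.000174 and 0.0162, lowest without TgGRK5-MI replicate 5. The exact permutation p rose above 0.05 (0.0635 to 0.0952) in 8 of these 10 cases and fell to 0.00794 without TgGRK5-MI replicate 5. Beside it, the B cell markers (4 genes) summed to 1.18 to 2.99 CPM in NLC-MI and 1.61 to 5.01 CPM in TgGRK5-MI. Across all 10 libraries, Cxcl13 and the macrophage sum, both as log2 values, had a Pearson r of 0.27 (permutation p = 0.442). Spearman's rho was 0.27 (permutation p = 0.449), and r was −0.04 without the 2 libraries farthest from the median sum. Within the groups r had opposite signs, 0.88 in NLC-MI and −0.64 in TgGRK5-MI over 5 libraries each, and the part of macrophage or B cell RNA in the difference was not tested.

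**Figure D3:**
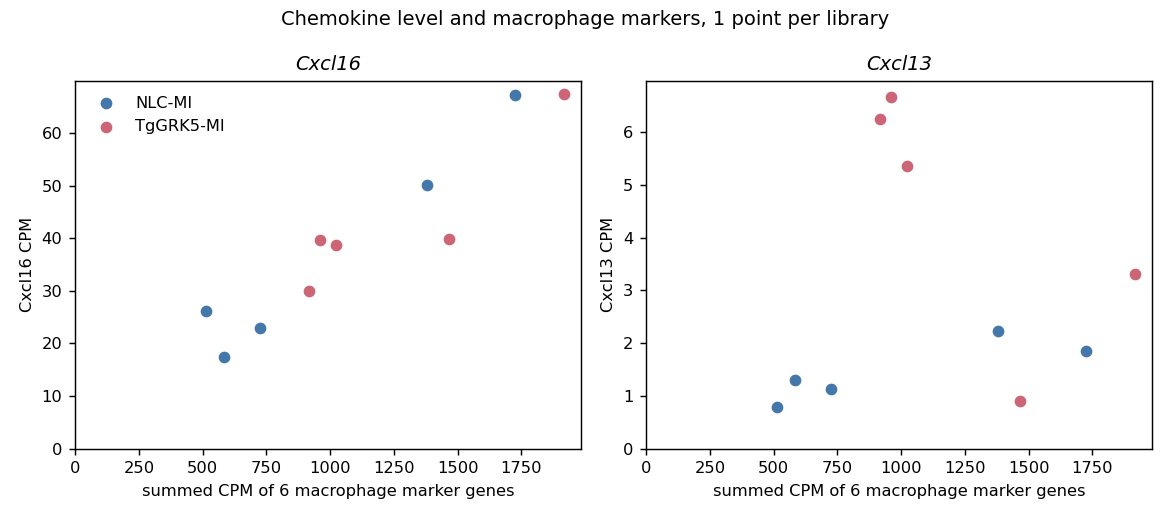
Level in CPM of Cxcl16 (left) and Cxcl13 (right) in each library against the summed CPM of 6 macrophage marker genes, with 1 point per library, NLC-MI in blue and TgGRK5-MI in red. Cxcl16 rises with the marker sum in both groups (r 0.93 in NLC-MI and 0.87 in TgGRK5-MI), and 4 TgGRK5-MI points of Cxcl13 lie above all NLC-MI points, with r 0.88 in NLC-MI and −0.64 in TgGRK5-MI. The r values were computed on log2 values, while the axes are linear.

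Cxcl11, a ligand of Cxcr3, was the rarest member, with 3, 9, 0, 0 and 0 counts in NLC-MI replicates 1 to 5 and 8, 12, 4, 7 and 9 counts in TgGRK5-MI replicates 1 to 5. Every TgGRK5-MI library had more than the floor of 3 counts and 1 of the 5 NLC-MI libraries did. In CPM the NLC-MI libraries were at 0.132, 0.364, 0, 0 and 0, and the 0 counts allow up to 0.392, 0.141 and 0.196 CPM in replicates 3, 4 and 5. The TgGRK5-MI libraries were at 0.357, 0.523, 0.347, 0.753 and 0.483 CPM. The groups overlapped through NLC-MI replicate 2, which lay above TgGRK5-MI replicates 1 and 3. The difference of mean log2 CPM, with a prior count of 2, was 1.74 (two-sided exact permutation test, p = 0.0238), and it lay between 1.57 and 2.89 over 13 alternatives, with exact p between 0.00794 and 0.0317. Fitted without the low-count filter, Cxcl11 had a log2 fold change of 1.87 (SE 0.70, edgeR adjusted p = 0.869), a value that depends on the prior count. Cxcl11 too was named by the study from these samples, so the same limit on independence holds. The study also reported altered Cxcl11 by RT-PCR in cardiomyocytes after MI, and higher Cxcl11 in the left ventricle of sham-operated TgGRK5 mice. Those values were not analysed here.

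The annotation of Cxcl11 (chromosome 5, 92359544 to 92365485) bears on what its counts stand for. The reference strain's copy is annotated as a polymorphic pseudogene, and a second transcript model skips 2 bases early in the coding exon to restore the reading frame. The stretch is shown because these 2 bases, in capitals, separate both models.
Cxcl11, chr5:92363155-92363214, minus strand: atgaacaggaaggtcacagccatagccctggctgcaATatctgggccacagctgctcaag
Read with the 2 bases, the frame runs 36 codons to a stop, and without them it runs through the CXC codons printed above. The counts do not tell these models apart, and RNA counted on the gene says nothing of the protein. Cxcl11 also shares 1582 exon bases with Gm2673 on the opposite strand, which had 0 counts in all libraries. The strand setting of the counting was not given in the sources used here, so reads from the shared bases cannot be assigned by strand.

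Cxcl9 and Cxcl10, the other interferon-inducible ligands, had negative fold changes that did not pass the test. Cxcl9 was at 9.15, 6.95, 11.6, 3.47 and 5.49 CPM in NLC-MI replicates 1 to 5 and at 2.99, 4.49, 6.60, 11.8 and 5.52 CPM in TgGRK5-MI replicates 1 to 5. The groups overlapped over most of their range, and the highest value of each group stood in its shallowest library. The log2 fold change was −0.23 (SE 0.39, 95% interval −1.08 to 0.62, edgeR p = 0.564, exact permutation p = 0.579). Without NLC-MI replicate 3 it was −0.02, and without TgGRK5-MI replicate 4 it was −0.58. Cxcl10 was at 14.0, 5.86, 7.19, 4.73 and 3.99 CPM in NLC-MI and at 4.60, 6.45, 2.95, 6.78 and 5.15 CPM in TgGRK5-MI. NLC-MI replicate 1 stood apart, and the other 9 libraries lay between 2.95 and 7.19 CPM with the groups mixed. The log2 fold change was −0.47 (SE 0.35, 95% interval −1.23 to 0.29, edgeR p = 0.205, exact permutation p = 0.405), and without NLC-MI replicate 1 it was −0.07. Cxcl10 shares 133 exon bases with Art3 on the opposite strand, a gene with mean levels of 220 and 242 CPM in NLC-MI and TgGRK5-MI, so part of its reads cannot be assigned without strand.

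None of the ELR ligands that draw neutrophils passed the test in either direction. Cxcl1 was at 12.9, 4.93, 11.0, 6.75 and 6.27 CPM in NLC-MI replicates 1 to 5 and at 4.65, 4.84, 7.03, 8.28 and 4.88 CPM in TgGRK5-MI replicates 1 to 5. Of the TgGRK5-MI libraries, 3 lay below the lowest NLC-MI library, and 2 NLC-MI libraries lay above every TgGRK5-MI library. Its means were 8.36 ± 3.39 CPM and 5.93 ± 1.64 CPM (SD, n = 5 each), with a log2 fold change of −0.50 (SE 0.29, 95% interval −1.14 to 0.14, edgeR p = 0.113, exact permutation p = 0.198), the most negative of the members. Without NLC-MI replicate 2, the lowest of its group, it was −0.64 (edgeR p = 0.0445, adjusted p = 1.00, exact permutation p = 0.0794), and without NLC-MI replicate 1, the highest, it was −0.29 (edgeR p = 0.315, exact permutation p = 0.357).

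Cxcl2 was at 5.89, 5.17, 12.4, 8.67 and 3.73 CPM in NLC-MI and at 3.39, 3.88, 9.37, 9.79 and 3.00 CPM in TgGRK5-MI. The TgGRK5-MI libraries split into 3 low and 2 high, and the 2 high ones, replicates 3 and 4, were the shallowest of that group. The log2 fold change was −0.29 (SE 0.42, 95% interval −1.20 to 0.62, edgeR p = 0.497, exact permutation p = 0.484). It ran from −0.03 without NLC-MI replicate 3 to −0.55 without TgGRK5-MI replicate 4. Cxcl5, also made by epithelial and stromal cells, was at 8.05, 5.26, 6.01, 7.31 and 4.18 CPM in NLC-MI and at 10.9, 6.67, 4.86, 7.21 and 4.34 CPM in TgGRK5-MI. Its groups overlapped over nearly all of their range, apart from TgGRK5-MI replicate 1 at the top. The log2 fold change was 0.14 (SE 0.28, 95% interval −0.46 to 0.74, edgeR p = 0.616, exact permutation p = 0.738), with −0.11 without TgGRK5-MI replicate 1 and 0.27 without TgGRK5-MI replicate 5. The neutrophil markers, 5 genes, summed to 7.84 to 21.4 CPM in NLC-MI and 10.6 to 23.5 CPM in TgGRK5-MI, and their defining gene Ly6g had at most 1 count in any library.

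**Figure D4:**
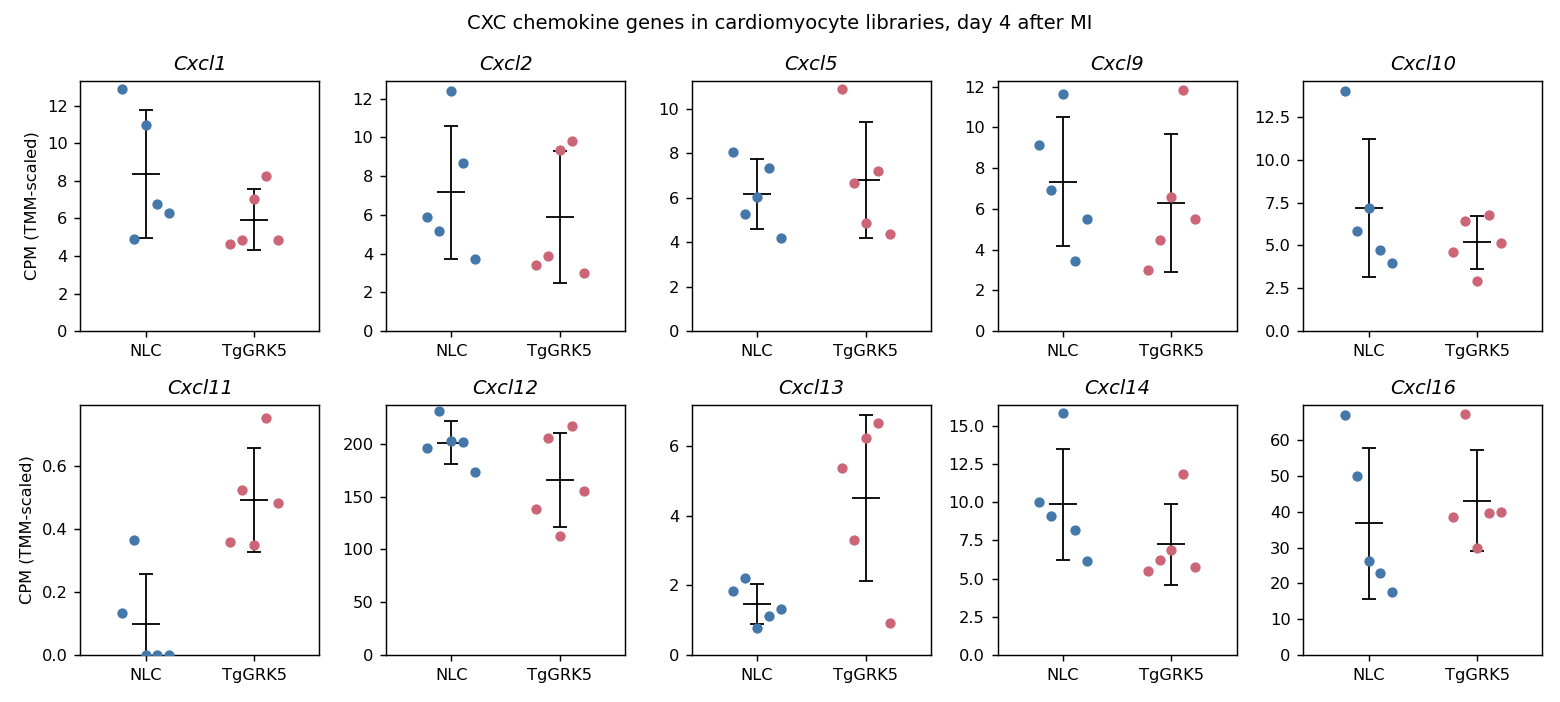
Level of the 10 CXC chemokine genes in CPM in each library (points; NLC for NLC-MI in blue, TgGRK5 for TgGRK5-MI in red), with the mean (long line) and SD (bars) of the 5 libraries of each group, each panel on its own linear axis from 0. The groups overlap in every panel, and for Cxcl13 4 of 5 and for Cxcl11 3 of 5 TgGRK5-MI libraries lie above the highest NLC-MI library.

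The promoters of the 3 members with a match to the searched kappaB letters are shown, so that their letters can be compared. These letters are a narrow form of the sites that NF-kappaB binds. The promoter of Cxcl13, the tested member with the highest fold change, is shown beside them. RefSeq's promoter table for GRCm38.p6 held 7 of the 10 members, all but Cxcl5, Cxcl11 and Cxcl16. The bases from 250 to 31 before the start are printed 5′ to 3′ along the gene's strand, with matches in capitals, for Cxcl1, Cxcl2, Cxcl10 and Cxcl13.
Cxcl1, chr5:90890995-90891214, plus strand: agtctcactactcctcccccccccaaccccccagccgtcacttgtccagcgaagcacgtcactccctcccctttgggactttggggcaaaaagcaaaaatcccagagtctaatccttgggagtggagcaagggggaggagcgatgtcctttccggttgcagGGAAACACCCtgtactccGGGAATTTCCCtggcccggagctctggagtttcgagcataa
Cxcl2, chr5:90903649-90903868, plus strand: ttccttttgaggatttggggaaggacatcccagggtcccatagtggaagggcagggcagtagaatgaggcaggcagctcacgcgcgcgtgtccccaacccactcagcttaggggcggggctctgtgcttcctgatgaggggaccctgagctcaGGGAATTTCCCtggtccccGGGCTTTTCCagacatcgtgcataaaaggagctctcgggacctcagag
Cxcl10, chr5:92348920-92349139, minus strand: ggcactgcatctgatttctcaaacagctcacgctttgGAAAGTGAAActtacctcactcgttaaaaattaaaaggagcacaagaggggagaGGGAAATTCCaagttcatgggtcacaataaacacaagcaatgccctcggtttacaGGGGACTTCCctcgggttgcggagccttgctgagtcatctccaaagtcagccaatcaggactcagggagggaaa
Cxcl13, chr5:95956689-95956908, plus strand: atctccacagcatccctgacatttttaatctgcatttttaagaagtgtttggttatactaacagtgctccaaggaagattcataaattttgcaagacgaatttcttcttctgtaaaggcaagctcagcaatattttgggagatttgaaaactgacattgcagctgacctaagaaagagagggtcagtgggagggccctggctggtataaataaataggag
The searched letters, on both strands, were GGG and TTCC with any 3 bases between them for a kappaB site, GAAA and GAAA with any 2 bases between them for an interferon-stimulated response element (ISRE) and TTCNNNGAA for a gamma-activated site (GAS), and overlapping matches were kept. The kappaB letters were in the window of 3 of the 7 members, Cxcl1, Cxcl2 and Cxcl10, and in 3.84% of 32851 promoters. The nearest match began 70 bases before the start in Cxcl1 and 78 bases before it in Cxcl2, and Cxcl10 had matches 159 and 104 bases before it. The ISRE letters were in Cxcl10, 213 bases before the start, and in Cxcl14, and in 2.63% of promoters. The GAS letters were in Cxcl14 alone of the 7 and in 6.27% of promoters. Cxcl9, Cxcl12 and Cxcl13 held none of these letters in this window, and a match is a description of letters, not of binding. Other forms of these sites were not searched, so the lack of a match does not show the lack of a site.

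Cxcl12, the ligand of Cxcr4 and the most abundant member, was at 196, 231, 202, 202 and 173 CPM in NLC-MI replicates 1 to 5 and at 138, 205, 113, 217 and 155 CPM in TgGRK5-MI replicates 1 to 5. TgGRK5-MI replicates 1, 3 and 5 lay below every NLC-MI library, while replicates 2 and 4 lay at the upper end of the NLC-MI range. The level thus varied more in TgGRK5-MI, with a coefficient of variation of 26.7% against 10.2%, and this difference in spread was not tested. The log2 fold change was −0.28 (SE 0.19, 95% interval −0.69 to 0.13, edgeR p = 0.159, exact permutation p = 0.143), and limma-voom with sample quality weights gave −0.44 (p = 0.0189, adjusted p = 0.357). Without TgGRK5-MI replicate 3, the lowest library, edgeR's value was −0.18.

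Cxcl14 was at 10.03, 9.10, 15.8, 8.20 and 6.14 CPM in NLC-MI and at 5.49, 6.23, 6.86, 11.8 and 5.74 CPM in TgGRK5-MI. In each group the shallowest library held the highest value, and 4 of the 5 TgGRK5-MI libraries lay below the NLC-MI median. The log2 fold change was −0.45 (SE 0.28, 95% interval −1.07 to 0.17, edgeR p = 0.143, exact permutation p = 0.183). Without TgGRK5-MI replicate 4 it was −0.69 (edgeR p = 0.0230, adjusted p = 1.00, exact permutation p = 0.0397), and limma-voom gave −0.59 (p = 0.00604, adjusted p = 0.291). Without NLC-MI replicate 3 it was −0.23 (edgeR p = 0.397, exact permutation p = 0.373), so its size rests on the shallowest library of each group.

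Library depth moved with some of these values. Both the levels and the total counts were taken as log2 values. Against the total counts of the 10 libraries, Pearson's r was −0.73 for Cxcl2 (permutation p = 0.0163, adjusted p = 0.106 over 18 relations), −0.73 for Cxcl9 (permutation p = 0.0177, adjusted p = 0.106) and −0.67 for Cxcl14 (permutation p = 0.0313, adjusted p = 0.141). Spearman's rho was −0.59, −0.60 and −0.44 (permutation p = 0.0793, 0.0731 and 0.201, adjusted p = 0.357, 0.357 and 0.524). Without NLC-MI replicate 3 and TgGRK5-MI replicate 4, r was −0.38, −0.29 and 0.24, so these relations rest on those libraries. For Cxcl1, r was −0.55 (permutation p = 0.0904, adjusted p = 0.326) and rho was −0.66 (permutation p = 0.0437, adjusted p = 0.357), and r was −0.21 without the same libraries. Within the groups, r of Cxcl1, Cxcl2, Cxcl9 and Cxcl14 was −0.50, −0.66, −0.61 and −0.73 in NLC-MI and −0.98, −0.90, −0.95 and −0.91 in TgGRK5-MI, over 5 libraries each. NLC-MI replicate 3 and TgGRK5-MI replicate 4 also had the highest summed level of 4 endothelial markers in their groups (1224 and 1271 CPM). The part of depth and of RNA from other cells in the group differences was not tested.

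Cxcl16, whose membrane form also takes up oxidized lipoprotein, was at 67.2, 50.1, 26.3, 22.9 and 17.5 CPM in NLC-MI replicates 1 to 5 and at 38.6, 67.4, 29.9, 39.7 and 39.8 CPM in TgGRK5-MI replicates 1 to 5. The TgGRK5-MI libraries all lay above the NLC-MI median, but 2 NLC-MI libraries were as high as or higher than most of them. The means were 36.8 ± 21.1 CPM and 43.1 ± 14.2 CPM (SD, n = 5 each) and the log2 fold change was 0.23 (SE 0.35, 95% interval −0.55 to 1.00, edgeR p = 0.536, exact permutation p = 0.389). With limma-voom it was −0.03 (adjusted p = 0.978), so its direction depended on the fit. In edgeR's fit it was 0.0059 without TgGRK5-MI replicate 2 and 0.55 without NLC-MI replicate 1. Cxcl16 shares 552 exon bases with Zmynd15 on the opposite strand, a gene with mean levels of 5.82 and 5.48 CPM in NLC-MI and TgGRK5-MI.

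Across the 10 libraries Cxcl16 rose with the macrophage marker sum, both taken as log2 values. Lyz2 made the largest part of this sum, with means of 593 and 789 CPM in NLC-MI and TgGRK5-MI. C1qa came next at 131 and 146 CPM, and correlations with single markers were not computed. The Pearson r with the marker sum was 0.92 (permutation p = 0.00035, adjusted p = 0.0063 over the 18 relations) and Spearman's rho was 0.94 (permutation p = 0.00017, adjusted p = 0.00306). Without the 2 libraries farthest from the median sum, r was 0.95, and within the groups it was 0.93 in NLC-MI and 0.87 in TgGRK5-MI. None of the other 8 tested members had an adjusted p under 0.05 against this sum. The fibroblast sum was also highest where Cxcl16 was highest, in NLC-MI replicates 1 (12405 CPM) and 2 (13281 CPM) and TgGRK5-MI replicate 2 (13132 CPM). The collagen genes Col1a1 (means 3719 and 3360 CPM in NLC-MI and TgGRK5-MI) and Col1a2 (3050 and 2822 CPM) made up most of the fibroblast sum. The cardiomyocyte sum was lowest in NLC-MI replicate 1 (38977 CPM) and TgGRK5-MI replicate 2 (40186 CPM). It was highest in NLC-MI replicate 5 (100970 CPM), where Cxcl16 was lowest. Correlations with these sums were not computed, so the relation is not shown to be particular to macrophages.

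**Figure D5:**
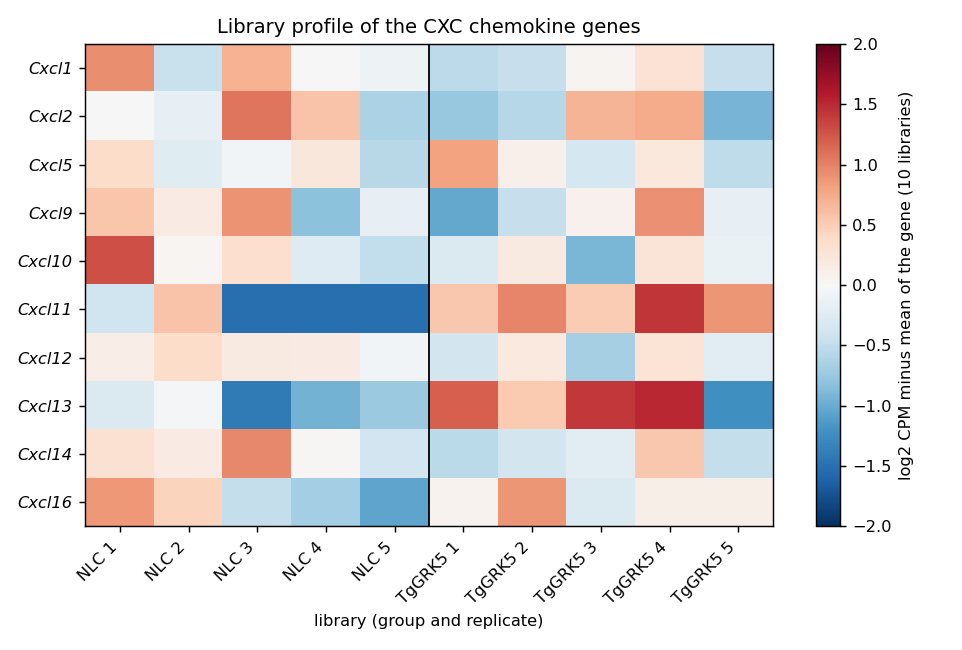
Log2 CPM of each CXC chemokine gene in each library minus the gene's mean over the 10 libraries (colour, red above and blue below the mean), with NLC-MI left and TgGRK5-MI right of the line. Cxcl11 and Cxcl13 are red in most TgGRK5-MI columns, with Cxcl13 blue in replicate 5, and the other 8 genes show red and blue on both sides.

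Of the 8 receptors counted, 5 passed the filter on low counts and 0 passed an unadjusted p under 0.05 with edgeR. Over all genes tested, 1.77% were higher and 2.08% lower at that threshold. Ackr3, which binds and clears Cxcl12 and Cxcl11, had the highest CPM of the receptors, without regard to length. It ran from 39.1 to 97.4 CPM in NLC-MI and from 60.1 to 93.8 CPM in TgGRK5-MI (log2 fold change 0.43, SE 0.25, edgeR p = 0.109, exact permutation p = 0.0952). Cxcr4, the signalling receptor of Cxcl12, was at 24.4 ± 11.6 CPM and 25.0 ± 8.41 CPM (SD, n = 5 each), with a log2 fold change of 0.04 (95% interval −0.69 to 0.77). Cxcr6, the receptor of Cxcl16, had a log2 fold change of −0.36 (95% interval −1.49 to 0.77) and Cxcr2, the receptor of the ELR ligands, one of −0.42 (95% interval −1.79 to 0.96). Ackr1, which binds several of these ligands on vessels and red cells, had mean levels of 0.673 and 0.538 CPM in the groups. Cxcr5, the receptor of Cxcl13, had 0 to 3 counts per library in NLC-MI and 1 to 7 counts in TgGRK5-MI, and Cxcr3, the receptor of Cxcl9, Cxcl10 and Cxcl11, had 0 to 11 counts and 2 to 16 counts. Cxcr1 had 0 counts in every library.

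The genes that make, cut, present or answer to these ligands did not pass the test in either direction. Over all genes tested, 1.77% were higher and 2.08% lower at an unadjusted p under 0.05, so 0 in lists this short is no departure from that share. Among 12 genes of ligand processing and presentation, such as the protease genes Adam10 and Adam17 that shed Cxcl16 and the peptidase gene Dpp4 that trims several ligands, 0 had an unadjusted edgeR p under 0.05 (median log2 fold change 0.02). Among 12 genes of receptor signalling, such as Gnai2 and Rac2, 0 did, 10 were positive and the median was 0.14. Over all genes, 7649 of the 15232 tested were positive, and the direction of this list was not tested. Of 15 inducers, 14 were tested and 0 passed (median −0.05), and Ifng, the interferon that induces Cxcl9, Cxcl10 and Cxcl11, had 1 count in 1 library. Jak1, a kinase of interferon receptors, was singled out after its values were seen. It was at 172.15 to 188 CPM in NLC-MI and 137 to 172.01 CPM in TgGRK5-MI, so the groups were only just apart. Its log2 fold change was −0.16 (SE 0.12, edgeR p = 0.200, exact permutation p = 0.00794, the smallest that 5 against 5 libraries allow). Groups did not overlap for 1 of the 14 inducers tested, Jak1, and for 153 of all genes tested (1.00%). Whether the inducers depart from that share was not tested. With DESeq2, 0 genes of these lists passed an unadjusted p under 0.05, and with limma-voom 2 were higher.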

How the data were processed

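TruSeq libraries were made from cardiomyocyte RNA of 10 mice, 5 per group. The authors deposited expected counts per Ensembl gene, as whole numbers. The submitters' processing notes name Bowtie2, RSEM 1.2.31, DESeq2 and mm10, without role or order. The strand setting and the annotation version were not given in the sources used here. Symbols, positions and exons came from GENCODE M21 on GRCm38 (51596 of 51789 identifiers), and promoters from RefSeq.

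Counts were normalized with TMM in edgeR 4.0.16 (R 4.3.3) and filtered with filterByExpr by group (15232 of 28506 genes with a total above 0). The quasi-likelihood F test was used between groups, adjusted over all genes tested by the Benjamini-Hochberg method, at an adjusted p under 0.10 and an unadjusted p under 0.05. Single genes were also compared with the two-sided exact permutation test of mean log2 CPM (prior count 2, 252 placements). Alternatives were RLE factors, library size alone, DESeq2 1.42.0, limma-voom (limma 3.58.1) with quality weights, a robust fit, no filter, a stricter filter (every library at 10 counts or more), a prior count of 0.5, the replicate number as a block and each library left out. The tests were tried on simulated counts. At an adjusted p under 0.10, 13.8% of the genes called were false with edgeR, 28.7% with DESeq2 and 11.4% with limma-voom. Correlations of the members with the macrophage marker sum and with the total counts were computed on log2 values and used 100000 permutations.

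The text names all members, Grk5, the receptors, marker and list genes with an unadjusted p under 0.05 and, per tested member, the 3 genes most alike across libraries. Other list and marker genes are examples, and Jak1, Ifng and the other CXC ligands were given values after these were seen. The members and lists were chosen with earlier results of these data known. Levels from counts carry counting error that is largest in the shallowest library (7968779 counts).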

Additional observations from a re-analysis of the deposited data

Results flagged for a closer look

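Among 22 groups of 5 libraries examined, 2 held a library far from the other 4, with a gap of more than 0.71 of the group's range, and chance alone marks about 1 group in 20. Cxcl14 was at 11.8 CPM in TgGRK5-MI replicate 4, where the other libraries of the group lay between 5.49 and 6.86 CPM. Cxcl16 was at 67.4 CPM in TgGRK5-MI replicate 2, where the others lay between 29.9 and 39.8 CPM. TgGRK5-MI replicate 4 was the shallowest library of its group. It also had the group's highest endothelial marker sum (1271 CPM) and neutrophil marker sum (23.5 CPM). Replicate 2 had the group's highest macrophage marker sum (1916 CPM) and fibroblast marker sum (13132 CPM). The part of depth and of RNA from these other cells in these values was not tested.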

How the results depend on the processing

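Grk5 kept its direction and an adjusted p under 0.10 in all 18 alternatives. Cxcl11 kept its direction and an exact permutation p under 0.05, not adjusted, in the 13 alternatives of that test. Its only edgeR fit, without the low-count filter, had an adjusted p of 0.869, so it did not pass the threshold that Grk5 passed. The Cxcl13 fold change stayed positive in all 17 alternatives, from 0.75 to 1.83, with adjusted p between 0.173 and 1.00. Cxcl5 changed sign without TgGRK5-MI replicate 1 (log2 fold change −0.11, difference of mean log2 CPM −0.10) and without NLC-MI replicate 5 (difference −0.03), and over all leave-one-out fits Cxcl5 ran from −0.11 to 0.27 (log2 fold change) and from −0.10 to 0.24 (difference). Cxcl16 changed sign with limma-voom (log2 fold change −0.032). The causes were not tested.

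Members at an unadjusted p under 0.05 numbered 1 higher and 0 lower. They were 0 higher and 2 lower (Cxcl12 and Cxcl14) with limma-voom, 2 higher without the filter, where Cxcl11 was tested, and 0 higher with at least 10 counts in every library, where Cxcl13 was not tested. With a library left out, 0 to 1 were lower, and 1 to 2 members had an exact permutation p under 0.05. Genes of the fixed lists at an unadjusted p under 0.05 were 0 in each direction, but 1 higher with library size alone, 2 higher with limma-voom, and 0 to 1 higher and 0 to 1 lower with a library left out.

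Over all genes, 8 were higher and 4 lower at an adjusted p under 0.10. These numbers were 13 higher with library size alone, 42 and 26 with DESeq2, 41 and 9 with limma-voom, 13 higher without the filter and 4 higher with at least 10 counts in every library. With a library left out they were 2 to 7 higher and 1 to 3 lower. At an unadjusted p under 0.05, 269 were higher and 317 lower, 1139 and 671 with limma-voom, 516 and 647 without the filter, and 175 to 591 higher and 265 to 537 lower with a library left out.

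The replicate numbers of the labels come from different mice, and same-numbered libraries correlated at 0.0717, 0.662, 0.381, −0.341 and 0.0848 in their deviations from the group means (mean 0.172, against −0.0274 for different numbers), so they were not taken as pairs. With the replicate number as a block, all genes at an adjusted p under 0.10 were 5 higher and 3 lower, and 2 list genes were higher at an unadjusted p under 0.05. Cxcl13 then had a log2 fold change of 1.40 (SE 0.47, edgeR adjusted p = 1.00), and no member's call changed.

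Cxcl11, Cxcr3 and Cxcr5 are among the genes under the filter on low counts, where 3 counts are worth up to 0.392 CPM in the shallowest library.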

Other observations

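The 5 other CXC ligand genes of the mouse counted here followed no common direction. Pf4, the platelet chemokine, averaged 35.7 ± 13.6 CPM (SD, n = 5) in NLC-MI against 39.2 ± 11.7 CPM (SD, n = 5) in TgGRK5-MI. Ppbp, also a platelet product, was at 3.68 ± 3.84 CPM and 1.83 ± 1.05 CPM, with a log2 fold change of −0.98 and a 95% interval that reached 0.29. Cxcl3, an ELR ligand, was at 0.778 CPM and 1.00 CPM. Cxcl15 had 0 counts in every library and Cxcl17 at most 1 count.

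Genes most alike to a member in their deviations from the group means over the 10 libraries were, for Cxcl16, Epsti1 (r 0.990), Clec11a (r 0.984) and Rgs10 (r 0.982). For Cxcl13 they were Nrxn2 (r 0.914), Heatr6 (r 0.905) and Zfp592 (r 0.893). Cxcl14 was most like Tlr3 (r 0.985), S100a11 (r 0.983) and Rsu1 (r 0.982), and Cxcl9 most like Mphosph6 (r 0.986), Ift74 (r 0.962) and Terf1 (r 0.961). Cxcl2 was most like Slc25a37 (r 0.980), Lrch4 (r 0.979) and Rnf126 (r 0.971), and Cxcl12 most like Nxpe4 (r 0.967), Fancf (r 0.956) and Cdk19 (r 0.952). Cxcl10 was most like Sh3bgrl (r 0.960), Pde3b (r 0.955) and Rpe (r 0.954), Cxcl1 most like Spcs2 (r 0.918), Gnrh1 (r 0.909) and Fli1 (r 0.906), and Cxcl5 most like Lpp (r 0.900), Cyp51 (r 0.892) and Pip5k1a (r 0.886). These are the highest values among 15232 genes over 10 libraries and are given as a description.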
